A study of Mus musculus with 2 samples.

Results

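Csf1r, its ligands and the related colony-stimulating factor receptors were followed in single cells sorted from embryonic mouse brain. The members were the 6 genes Csf1r, Csf1, Il34, Csf2ra, Csf2rb and Csf3r, taken by gene symbol from 31053 features listed in both count matrices. Each was described by library and by cell class, to see which class held the ligand transcripts and which the receptor transcripts. Csf1r encodes the receptor tyrosine kinase on which microglia and other tissue macrophages depend for survival and proliferation, and mice without it lack nearly all microglia. Its ligands are CSF1, a growth factor made by many cell types as a membrane-bound or secreted protein, and IL-34, which in the postnatal forebrain comes mainly from neurons. Csf2ra and Csf2rb encode the ligand-binding and the signalling chain of the receptor for GM-CSF, and Csf3r encodes the receptor for G-CSF, best known from neutrophils.

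The cells came from the hypothalamic and thalamic region of CD1 embryos at E15.5. In the stressed group the tissue of 5 embryos of 1 dam was pooled. That dam had been kept in the cold, at 4 °C for 30 min a day, for 5 days from E11.5. The control group was a pool of 10 embryos from 1 untreated wild-type dam. Both pools were sorted for cells double positive for Cd11b, a myeloid integrin, and Cd45, a surface marker of leukocytes. Each pool gave 1 droplet library counted as unique molecular identifiers (UMIs), 1 per captured transcript. No group had a replicate library, so there is no test of stress, and a difference between the libraries cannot be told apart from one between dams, pools or runs. All intervals are exact, at 95%, and cover counting error only.

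Of 1467 stressed and 1156 control barcodes, 1407 and 1068 passed the filters on genes and mitochondrial UMIs. The median depth per barcode was 3767 UMIs in the stressed and 1947.5 UMIs in the control library. Cells were placed in a class by marker genes that include no member. The microglia class held 1143 stressed and 660 control cells, and all 11 microglia markers, P2ry12, Tmem119 and Sall1 among them, were detected in it in both libraries. The border macrophage class held 26 stressed and 78 control cells, with all 9 of its markers detected in each. The libraries also differed in sex: in microglia-gated cells Y-linked genes had 1 UMI in the stressed library and 183 UMIs in the control library, and Xist stood at 1826 CPM in the stressed and 559 CPM in the control library (CPM: counts scaled to 1000000 UMIs of the class). There were 13 barcodes common to both libraries, and 5 of the stressed and 8 of the control ones were kept.

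The RefSeq promoter table of GRCm38.p6 held 3 of the 6 members, Csf1, Csf2ra and Csf3r. The 250 bases before the Csf1 start are shown because Csf1 is the ligand gene that microglia expressed here, at levels that differed between microglial states. They lie at chr3:107760470-107760719 and are printed along the minus strand, with a match to the NF-kappaB consensus in capitals, at position -154 from the start.
Csf1: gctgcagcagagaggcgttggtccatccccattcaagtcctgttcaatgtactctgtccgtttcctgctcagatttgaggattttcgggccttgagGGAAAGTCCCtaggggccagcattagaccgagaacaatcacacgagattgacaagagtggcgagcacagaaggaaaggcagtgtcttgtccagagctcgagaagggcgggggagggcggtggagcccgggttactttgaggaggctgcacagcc
This window has 10 CpG dinucleotides and 56.4% G and C, where the median promoter has 6 and 52.4%.

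The Csf3r window also held 1 NF-kappaB match, at position -129 from the RefSeq start, and the Csf2ra window none. GENCODE starts Csf3r earlier, inside this window, so the position holds for the RefSeq start only. To compare them, 30 bases around each match are given with the match in capitals, for Csf1 from chr3:107760604-107760633 on the minus strand and for Csf3r from chr4:126024520-126024549 on the plus strand.
Csf1 match: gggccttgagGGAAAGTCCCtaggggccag
Csf3r match: ccctgaggcaGGAAGGTCCCtagctcacca
Of 32851 promoter windows of this length, 7.25% hold such a match. The PU.1 core GAGGAAGT (2.44% of windows), the ETS core CAGGAAGT (2.69%) and the AP-1 motif TGANTCA (6.75%) were in none of the Csf1, Csf2ra and Csf3r windows. The window of the chemokine gene Ccl3, also searched, held no match to any of the 4 motifs. All 4 motifs were searched on both strands, no match here overlapped another, and the motifs were chosen with the Csf1 window in view. A match is a description of the letters and not a binding site.

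The genes lie on different chromosomes. On GRCm38, Csf1r (ENSMUSG00000024621) spans chr18:61100598-61132149 on the plus strand, with Hmgxb3 on the opposite strand over part of it, where reads of the genes cannot be told apart unless counting used strand. Csf1 (ENSMUSG00000014599) spans chr3:107741048-107760469 and Il34 (ENSMUSG00000031750) spans chr8:110741829-110805924, both on the minus strand. Csf2ra (ENSMUSG00000059326) lies at chr19:61223957-61228429 on the minus strand and Csf3r (ENSMUSG00000028859) at chr4:126024550-126044440 on the plus strand. Csf2rb (ENSMUSG00000071713) lies at chr15:78325752-78353847 on the plus strand, 20030 bases from its duplicate Csf2rb2, whose product serves the IL-3 receptor in mice. Of the 75-base windows of the longest Csf2rb transcript, 10.7% also occur in Csf2rb2, but none within its last 500 bases, near where a 3′ library reads.

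The ligand Csf1 was found in microglia. Microglia-gated cells held 906 of its UMIs in the stressed and 387 in the control library, which is 97.2% and 93.7% of all Csf1 UMIs in kept cells of the stressed and control libraries. The class held 80.4% of all UMIs in the stressed and 62.1% in the control library, so Csf1 was more concentrated there than UMIs in general. Its level was 174 CPM (163 to 186) in stressed and 228 CPM (205 to 251) in control microglia. Border macrophages, the macrophages of meninges and perivascular spaces, had no Csf1 UMI in either library, which allows up to 20.1 CPM in the stressed and 9.74 CPM in the control library by a limit of 3 counts. The microglial level was 8.65-fold that limit in the stressed library and 23.4-fold that limit in the control library. The exact lower bounds of these ratios were 7.02 in the stressed and 18.9 in the control library. Shares of genes, here and below, count only genes with at least 20 CPM in a compared group of cells. These numbered 6032 in the stressed and 5665 in the control library. Of them, 0.282% (stressed) and 0.583% (control) were at least 10 times higher in microglia than in border macrophages. The stressed Csf1 bound falls short of 10 times. A gene without a border macrophage UMI was set to 3 counts there too. These shares therefore depend on the depth of that class and do not show that Csf1 is exceptional. In clusters made without the members, the border macrophage cluster held 3 Csf1 UMIs in 28 stressed cells and 0 in 78 control cells.

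Monocyte- or granulocyte-gated cells had no Csf1 UMI either, among 19 stressed and 22 control cells, but these few cells allow up to 35.5 CPM in the stressed and 69.2 CPM in the control library. Neural cells, which passed the sort in spite of the myeloid gate, had 5 Csf1 UMIs (7.28 CPM) in 159 stressed cells and 3 UMIs (6.54 CPM) in 217 control cells. The microglial level was 23.9-fold the neural one (10.2 to 73.8) in the stressed library. In the control library the ratio was 34.8 (11.8 to 170), on 3 neural UMIs. The stressed ratio rests on 5 neural UMIs: as a log2 it was 4.58, and 2.79 with each cell thinned to 1000 UMIs, which is under 10 times. After thinning, 3 stressed neural cells held a Csf1 UMI, and the cause of the move was not tested. Of genes at 20 CPM or more, 5.06% (stressed) and 4.77% (control) were at least 10 times higher in microglia than in neural cells. For each 100 Csf1r UMIs, neural cells had 26.3 Csf1 UMIs in the stressed and 23.1 in the control library. Microglia had 18.5 in the stressed and 19 in the control library. The neural values rest on 5 stressed and 3 control Csf1 UMIs, and the source of these UMIs was not tested. In the 7 stressed vascular cells, 1 cell held 3 Csf1 UMIs, and the 8 control vascular cells held none.

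The other ligand, Il34, was close to absent. It had 4 UMIs in the stressed and 1 UMI in the control library. No microglia-gated cell held one, which allows up to 0.577 CPM in stressed and 1.76 CPM in control microglia. No border macrophage, monocyte or granulocyte, or neural cell held one either, and 0 UMIs in neural cells allow up to 4.37 CPM in the stressed and 6.54 CPM in the control library. In the stressed library 2 of the UMIs were in 1 vascular cell, 1 in an ungated cell led by vascular markers and 1 in the only erythroid-gated cell. The single control UMI was in an ungated cell led by microglia markers, which also held 3 Csf1r and 2 Csf1 UMIs. The sort was made to keep myeloid cells, so these counts describe the sorted cells and not the ligand supply of the tissue.

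The receptor Csf1r was found in microglia and in border macrophages. Microglia-gated cells held 4902 Csf1r UMIs in the stressed and 2041 in the control library, at 942 CPM (916 to 969) in stressed and 1200 CPM (1149 to 1253) in control cells. That level was above 97.1% of measured genes in stressed and 97.9% in control microglia. Border macrophages had 121 UMIs in the stressed library, or 812 CPM (673 to 970), and 214 UMIs in the control library, or 695 CPM (605 to 794). The microglial level was 1.16-fold the border macrophage level (0.969 to 1.40) in the stressed library and 1.73-fold (1.5 to 2.0) in the control library. The intervals of the classes overlapped in the stressed library and not in the control library, and 25.8% of genes in the stressed and 27.9% in the control library were at least 1.5 times higher in microglia than in border macrophages.

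Below these macrophages came the monocyte or granulocyte class, with 16 Csf1r UMIs in stressed cells (189 CPM, 108 to 307) and 11 UMIs in control cells (254 CPM, 127 to 454). This was 0.201 of the microglial level in the stressed and 0.211 of it in the control library. The class was not of 1 kind. Of its 16 markers, Ngp, Camp, Lcn2, Retnlg, Ltf and Cd177 had no UMI in stressed cells and were detected in control cells. Chil3 and Elane went the other way, and Mpo had no UMI in either library. Border macrophage markers summed to 970 CPM in the stressed and 185 CPM in the control cells of the class. The part of these differences in the Csf1r levels was not tested.

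Neural cells had the lowest Csf1r level with more than 1 UMI behind it, 19 UMIs (27.7 CPM) in the stressed and 13 UMIs (28.3 CPM) in the control library. Microglia had 34.0 times that level (21.8 to 56.6) in the stressed and 42.4 times (24.7 to 79.7) in the control library. The control ratio depended on the processing: its log2 of 5.40 became 6.44 with thinned cells and 6.78 where the leading marker list had to exceed the next 4 times. Microglia markers summed to 133 CPM in stressed and 120 CPM in control neural cells, and 1 stressed neural cell alone held 6 Csf1r UMIs. The source of the neural Csf1r UMIs was not tested. Border macrophages were above neural cells as well, 29.3-fold (18 to 50.4) in the stressed and 24.5-fold (14.0 to 46.8) in the control library, where 5.26% of genes in the stressed and 4.94% in the control library were at least 10 times higher. Vascular cells had 1 Csf1r UMI in the stressed and 0 in the control library. From the highest level down, the order in both libraries was microglia, border macrophages, monocytes or granulocytes, neural cells and vascular cells. The last 2 of these could not be separated in either library, and the first 2 could not be separated in the stressed library.

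**Figure D1:**
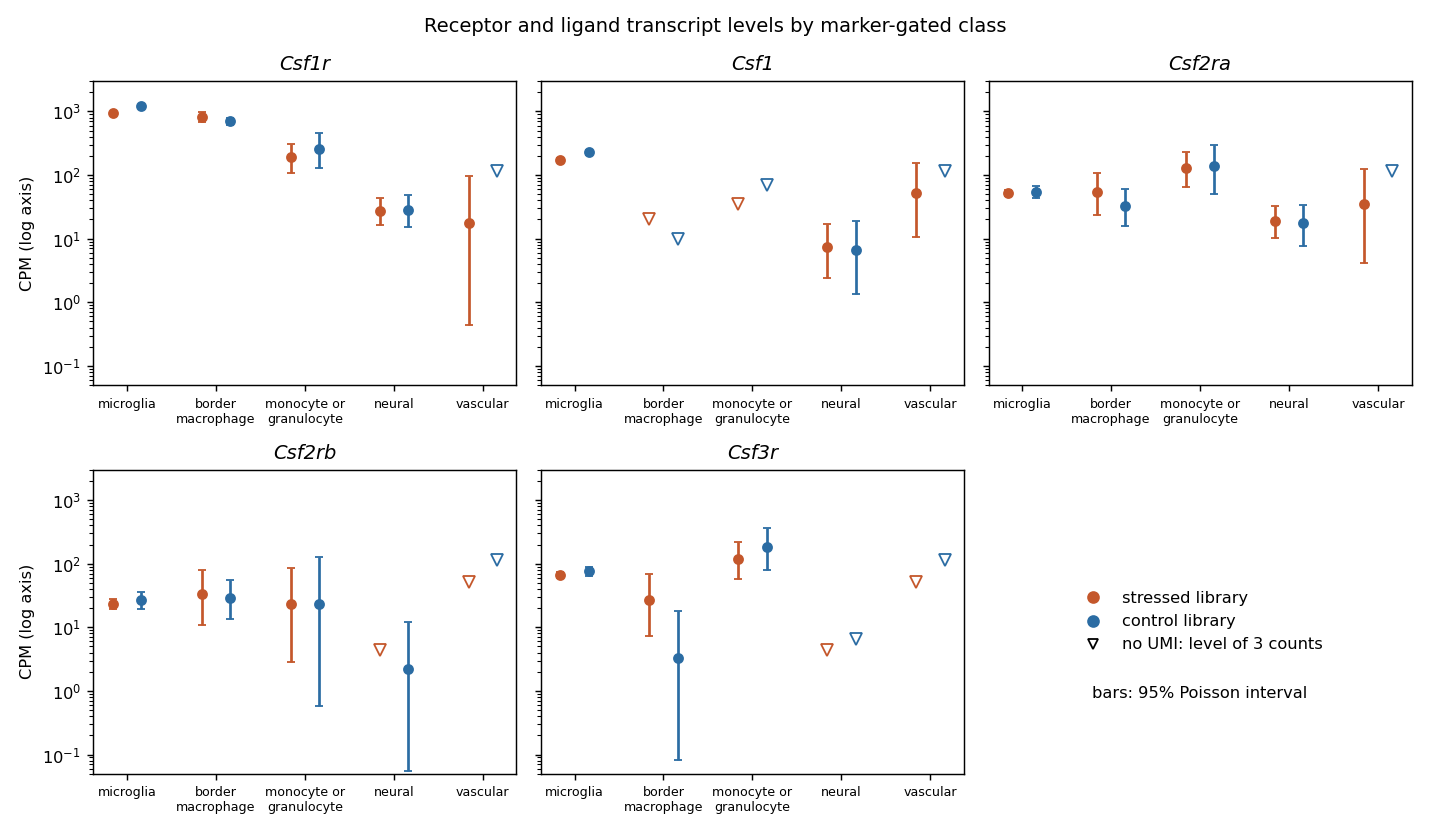
Level of each of 5 members (CPM, log axis) by marker-gated class, in the stressed library (orange) and in the control library (blue). Points are sums over cells, bars are 95% Poisson intervals, and open triangles mark the level of 3 counts where a class had no UMI; Csf1r is high in both macrophage classes, Csf1 in microglia (the stressed vascular point is 1 cell), and Csf3r in microglia and in the monocyte or granulocyte class.

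Most single microglia held receptor transcripts and a minority held ligand transcripts. At least 1 Csf1r UMI was present in 94.6% of 1143 stressed and 92.1% of 660 control microglia. After each cell was thinned to 1000 UMIs to remove the difference in depth, the shares were 63.7% of stressed and 71.8% of control microglia. Neural cells, with a median of 3194 UMIs in the stressed and 1517 in the control library, are given beside them: 8.81% of stressed and 4.15% of control neural cells had a Csf1r UMI, or 1.97% and 1.63% of the stressed and control ones after thinning. The source of these neural UMIs was not tested; the median number of microglia marker UMIs was 0 in the 14 stressed and 1 in the 9 control neural cells with a Csf1r UMI, and 0 in those without one in both libraries. Csf1 had a UMI in 29.2% of stressed and 26.7% of control microglia, and in 10.3% of stressed and 12.7% of control microglia after thinning. The microglial medians were 3982 UMIs in the stressed and 2162 in the control library.

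The top cells also held a larger share of the Csf1 UMIs than of the Csf1r UMIs. The 1% of microglia with most Csf1 UMIs held 14.2% of them in the stressed and 15.2% in the control library, and the top cell had 19 UMIs in the stressed and 11 in the control library. For Csf1r the top 1% of microglia held 3.24% in the stressed and 3.63% in the control library, although 56.3% of stressed and 37.3% of control microglia had 4 or more Csf1r UMIs. This share does not separate uneven spread from a low count. For Csf2rb, with at most 3 UMIs in a cell, it was 18.9% in the stressed and 17.8% in the control library. It was 12.1% in the stressed and 15.2% in the control library for Csf2ra. For Csf3r it was 9.25% in the stressed and 12.4% in the control library.

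**Figure D2:**
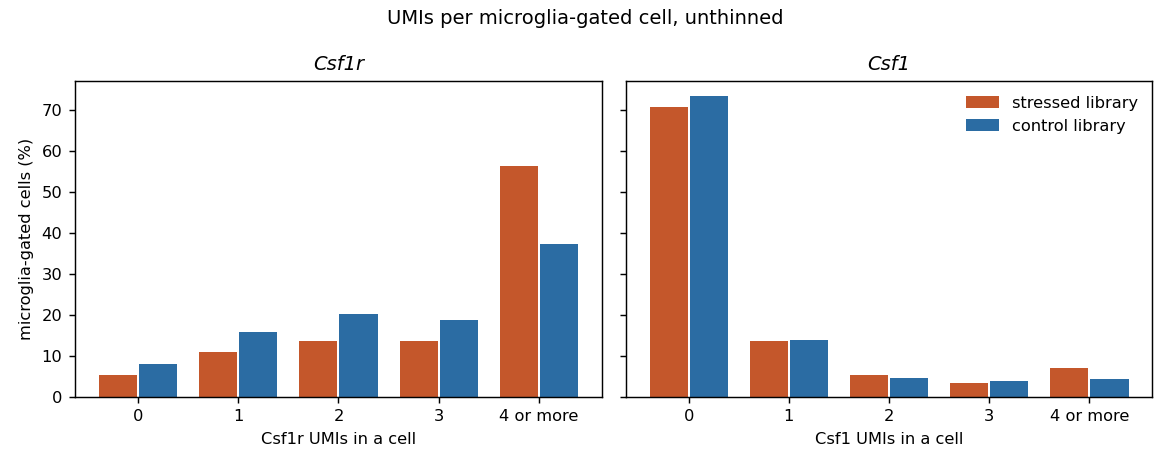
Share of microglia-gated cells (%, vertical axis) by the number of Csf1r UMIs (left) and Csf1 UMIs (right) in the cell, unthinned, in the stressed library (orange) and in the control library (blue). For Csf1, 70.8% of stressed and 73.3% of control cells had 0 UMIs, and for Csf1r 5.42% of stressed and 7.88% of control cells had 0.

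Ligand and receptor were in the same cells. Csf1r UMIs were found in 322 of 334 Csf1-positive stressed microglia (96.4%) and in 164 of 176 Csf1-positive control microglia (93.2%). In the Csf1-negative microglia the shares were 93.8% in the stressed and 91.7% in the control library. At 1000 UMIs per cell, Csf1r was detected in 56.4% of Csf1-positive and 64.6% of Csf1-negative stressed cells, and in 62.5% of Csf1-positive and 73.2% of Csf1-negative control cells. The thinned order is thus the opposite of the unthinned one, and the thinned intervals of the 2 kinds of cell overlap in both libraries.

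The ligand level followed the chemokines Ccl3 and Ccl4, which microglia make on activation. Of the microglia, 504 stressed cells (44.1%) and 244 control cells (37.0%) had a Ccl3 or Ccl4 UMI. In the stressed library Csf1 stood at 281 CPM (261 to 301) in cells with a chemokine UMI and at 52.3 CPM (43.6 to 62.3) in cells without one. In the control library it stood at 393 CPM (350 to 439) in cells with one and at 87.1 CPM (69.0 to 108) in cells without. The difference was 5.36-fold in stressed cells (log2 ratio 2.42, 2.15 to 2.71) and 4.51-fold in control cells (log2 ratio 2.17, 1.81 to 2.55). Of genes at 20 CPM or more, 4.32% (stressed) and 10.1% (control) were at least 1.5 times higher in the cells with a chemokine UMI. These cells were deeper, with a median of 5016.5 UMIs against 3393 without in the stressed library, and 2848 against 1918.5 without in the control library. At equal depth, 19.4% of stressed cells with a chemokine UMI had Csf1, against 2.98% without, and 25.4% of control cells with one had Csf1, against 4.85% without. The cells with a chemokine UMI were called at full depth in this comparison too.

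The relation was graded. In the stressed library Csf1 stood at 52.3, 113, 206, 331 and 737 CPM in cells with 0, 1, 2 to 4, 5 to 19 and 20 or more Ccl3 plus Ccl4 UMIs. In the control library the same steps gave 87.1, 263, 316, 600 and 701 CPM, with 13 cells in the last step. Csf1r went the other way, at 1108, 889, 846, 703 and 704 CPM in the stressed library and at 1403, 1008, 974, 917 and 814 CPM in the control library. In cells with a chemokine UMI against cells without, the Csf1r log2 ratio was -0.47 (-0.56 to -0.39) in the stressed library and -0.54 (-0.68 to -0.41) in the control library, short of 1.5 times in both. Csf3r had a ratio near 1, at a log2 of -0.06 in the stressed and -0.01 in the control library. Csf2rb was lower in cells with a chemokine UMI, at 18.7 CPM against 28.8 CPM without in the stressed library. In the control library it was at 17.9 CPM against 33.7 CPM without, and its log2 interval there reached 0.04. At equal depth, 1.98% of stressed cells with a chemokine UMI had Csf2rb, against 2.67% without. The control shares were 2.08% with and 3.83% without, and the intervals overlapped in both libraries. In the same split 4.64% of genes in the stressed and 12% in the control library were 1.5 times lower.

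**Figure D3:**
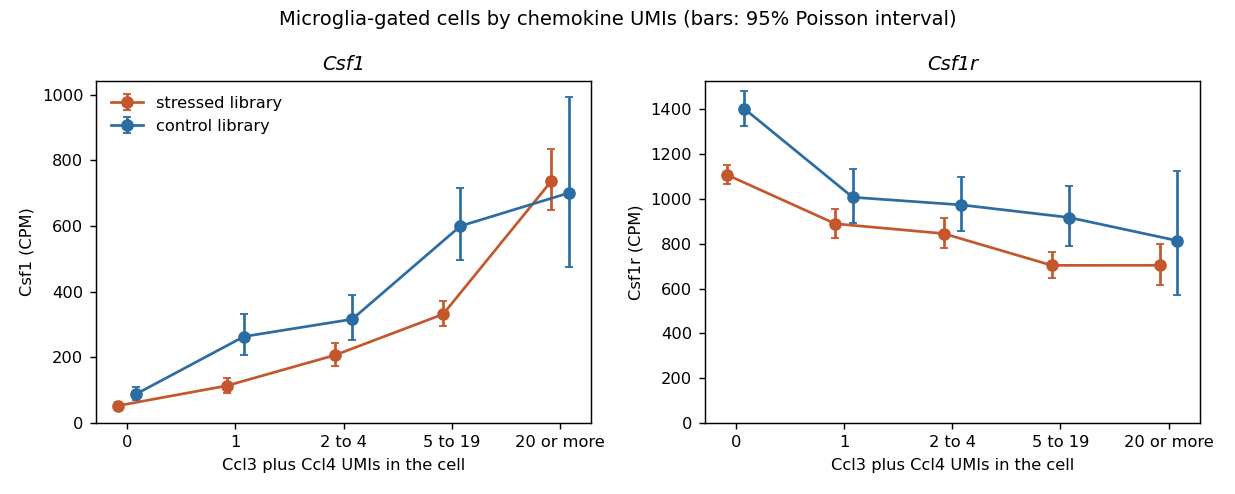
Level (CPM) of Csf1 (left) and Csf1r (right) in microglia-gated cells grouped by their Ccl3 plus Ccl4 UMIs, in the stressed library (orange) and in the control library (blue), with 95% Poisson intervals. In both libraries Csf1 is highest and Csf1r lowest or close to lowest in the cells with most chemokine UMIs.

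Genes that varied with the members from cell to cell were found by correlation over microglia, as a description, since cells of 1 library share its depth. With Csf1r these were Cst3, which encodes the protease inhibitor cystatin C (r = 0.35 in the stressed and 0.32 in the control library), Serinc3, the complement gene C1qa, the lysosomal protease gene Lgmn and Sparc. With Csf1 they were Ccl3 (r = 0.48 in the stressed and 0.41 in the control library), the fatty acid binding protein gene Fabp5 (0.44 in the stressed and 0.43 in the control library), Spp1, which encodes osteopontin (0.41 in the stressed and 0.46 in the control library), Rap2b and the tetraspanin gene Cd9. The genes compared numbered 5019.

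Dividing microglia had lower levels of Csf1 and Csf1r as a share of their UMIs. Cells with at least 2 UMIs of genes of G2 and mitosis were 25.6% of stressed and 22.6% of control microglia. In the stressed library Csf1 was at 122 CPM in these cells and 201 CPM in the others, and in the control library at 165 CPM in these cells and 257 CPM in the others. The log2 ratios, -0.72 (-0.95 to -0.50) for stressed and -0.64 (-0.99 to -0.29) for control cells, pass 1.5 times, as do 4.69% of genes in the stressed and 12.1% in the control library on the lower side. The dividing cells were deeper, with a median of 5243 UMIs against 3606.5 in the others of the stressed library. In the control library the medians were 3199 UMIs in dividing and 1974 in other cells. At equal depth Csf1 was detected in 7.19% of dividing and 11.3% of other stressed cells, and in 8.84% of dividing and 13.8% of other control cells. The intervals of these shares overlapped in both libraries. Csf1r had a log2 ratio of -0.36 in each library, short of 1.5 times. At equal depth it was detected in 60.3% of dividing and 64.9% of other stressed cells. In the control library the shares were 67.3% of dividing and 73.2% of other cells, and the intervals overlapped in both libraries. Csf3r was lower in dividing cells too, by a log2 ratio of -0.47 (-0.82 to -0.12) in the stressed and -0.77 (-1.43 to -0.15) in the control library. At equal depth it was detected in 6.85% of dividing and 7.66% of other stressed cells. In the control library the shares were 2.72% and 7.63%, and the intervals overlapped in both libraries. Csf2ra had -0.87 (-1.31 to -0.45) in the stressed and 0.11 (-0.56 to 0.75) in the control library.

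The related receptors were present at lower levels. Csf2ra, the chain that binds GM-CSF, had 273 UMIs in stressed microglia (52.5 CPM, 46.4 to 59.1) and 92 UMIs in control microglia (54.1 CPM, 43.6 to 66.3). It was at 53.7 CPM in stressed and 32.5 CPM in control border macrophages, on 8 stressed and 10 control UMIs. In the monocyte or granulocyte class it was at 130 CPM (64.9 to 233) in stressed and 138 CPM (50.8 to 301) in control cells. That was 2.48-fold the microglial level (1.22 to 4.51) in the stressed library and 2.56-fold (0.915 to 5.79) in the control library, where 30.4% of genes in the stressed and 47.5% in the control library are at least 1.5 times higher in that class.

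Beside Csf1r, Csf2ra was the member with most UMIs in neural cells. It had 13 UMIs in stressed and 8 in control neural cells, 18.9 CPM in the stressed and 17.4 CPM in the control library. Neural progenitors held 9 of these in the stressed and 5 in the control library, at 31.1 CPM (14.2 to 59.1) in stressed and 27.5 CPM (8.92 to 64.1) in control progenitors, and neurons held 3 in each. For each 100 Csf1r UMIs there were 68.4 Csf2ra UMIs in neural cells and 5.57 in microglia of the stressed library, and 61.5 in neural cells and 4.51 in microglia of the control library. After thinning, 1.97% of stressed and 1.63% of control neural cells held a Csf2ra UMI, which is 3 cells in each library. The ratios rest on few neural UMIs of either gene, and the source of the neural Csf2ra UMIs was not tested.

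Csf2rb, the signalling chain, was at 23.4 CPM in stressed and 26.5 CPM in control microglia, on 122 stressed and 45 control UMIs. It was at 33.5 CPM in stressed and 29.2 CPM in control border macrophages, on 5 stressed and 9 control UMIs, which differ from microglia by less than their counting intervals. Neural cells had no Csf2rb UMI in the stressed and 1 in the control library (2.18 CPM), levels that 0 or 1 UMI cannot tell from absence. Its duplicate Csf2rb2 had 39 UMIs in stressed and 19 in control microglia. Csf2ra and Csf2rb UMIs occurred together in 31 stressed and 8 control microglia. The share with Csf2rb was 13.9% of Csf2ra-positive and 8.59% of Csf2ra-negative stressed cells, and 9.41% of Csf2ra-positive and 6.26% of Csf2ra-negative control cells, and these shares rest on few UMIs per cell and were not separable after thinning. The ligand genes Csf2, Csf3, Il3 and Il5 had no UMI in microglia of either library.

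Csf3r was at 66.5 CPM (59.7 to 73.9) in stressed and 75.9 CPM (63.3 to 90.1) in control microglia, which held 94.5% of its UMIs in the stressed and 90.8% in the control library. The monocyte or granulocyte class was at 118 CPM in stressed and 185 CPM in control cells, on 10 stressed and 8 control UMIs. This was 1.78-fold the microglial level (0.845 to 3.31) in the stressed library and 2.43-fold (1.03 to 4.94) in the control library. The stressed interval includes 1. In that class 30.4% of genes in the stressed and 47.5% in the control library were at least 1.5 times higher. After thinning, 0 of 19 stressed and 4 of 21 control cells of the class held Csf3r. The microglial shares were 7.45% in the stressed and 6.49% in the control library. Border macrophages had 4 UMIs in the stressed library (26.8 CPM) and 1 UMI in the control library (3.25 CPM), so the microglial level was 2.48-fold theirs (0.959 to 9.15) in the stressed and 23.4-fold theirs (4.12 to 930) in the control library. Neural cells had none. With 3 counts set there, microglia were 15.2-fold higher in the stressed and 11.6-fold higher in the control library. The exact lower bounds were 12.3 in the stressed and 9.30 in the control library.

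Between the libraries, no member differed by 1.5 times in microglia. The log2 ratio of stressed over control was -0.35 (-0.42 to -0.27) for Csf1r and -0.39 (-0.56 to -0.21) for Csf1, both lower in the stressed library. For comparison, 7.57% of 5392 genes passed 1.5 times, 2.04% higher and 5.53% lower in the stressed library, the median gene had a log2 ratio of -0.08, and 17.5% of genes had a lower ratio than Csf1r and 14.7% a lower ratio than Csf1. Scaling by edgeR's TMM factors moved every log2 ratio by 0.11, the median gene to 0.03 and Csf1r to -0.24, and gave 189 genes higher and 159 lower in place of 110 higher and 298 lower. Csf1r and Csf1 were lower in the stressed library under that scaling too. The Csf1r ratio was -0.13 in cells that passed a stricter filter, of 1000 genes and 5% mitochondrial UMIs, and the Csf1 ratio was -0.10 without the 50% of cells with the highest level of dissociation-response genes. Among cells with Xist and no Y-linked UMI, 1068 stressed and 220 control ones, the log2 ratio was -0.38 for Csf1r and -0.37 for Csf1.

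The remaining receptors had intervals that include 0. The log2 ratio was -0.04 (-0.39 to 0.31) for Csf2ra, -0.17 (-0.68 to 0.35) for Csf2rb and -0.19 (-0.49 to 0.11) for Csf3r, and the sign for Csf2ra turns with the TMM shift of 0.11. In border macrophages Csf1r had a log2 ratio of 0.22 (-0.11 to 0.55), and in neural cells of -0.03.

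Around the receptor, few pathway genes differed between the libraries. Of 8 related ligands 1 reached 20 CPM, the platelet-derived growth factor gene Pdgfb, at 31.3 CPM in stressed and 22.9 CPM in control microglia. Below that level were Pdgfa, at 9.03 CPM in stressed and 14.1 CPM in control microglia, and Kitl, the ligand of the related receptor KIT, at 1.92 CPM in stressed and 1.76 CPM in control microglia. Of 7 related receptors 1 did, Il3ra, the IL-3 binding chain, at 17.1 CPM in stressed and 27.0 CPM in control microglia, and its log2 ratio of -0.66 (-1.19 to -0.11) is past 1.5 times. It reached 20 CPM in the control library only, so once admitted it had to be lower in stressed cells. Of the other proteins reported to bind IL-34, Trem2, a lipid-sensing receptor of microglia, was at 1554 CPM in stressed and 1268 CPM in control microglia. Ptprz1, a receptor phosphatase of neural progenitors, was at 1611 CPM in stressed and 1966 CPM in control neural progenitors, and had 10 UMIs in stressed and 0 in control microglia. Sdc1, a syndecan, had 6 UMIs in stressed and 3 in control microglia. Of 5 genes of shedding from the cell surface 2 were measured. Adam10 was at 200 CPM in stressed and 252 CPM in control microglia and Adam17, which encodes the protease that cuts both CSF1 and its receptor from the membrane, was at 76.1 CPM in stressed and 82.9 CPM in control microglia, and neither passed 1.5 times, while Rhbdf2, a cofactor of ADAM17, was at 12.5 CPM in stressed and 12.3 CPM in control microglia.

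Of 18 genes of proximal signalling 12 were measured and none passed 1.5 times. Their median log2 ratio was -0.16, beside -0.08 over all measured genes. The adaptor gene Tyrobp was at 4615 CPM in stressed and 5085 CPM in control microglia, the kinase gene Lyn at 278 CPM in stressed and 258 CPM in control microglia, and the adaptor gene Grb2 at 140 CPM in stressed and 125 CPM in control microglia. Of 13 downstream genes 8 were measured, Mcl1, Mapk3 and Akt1 being the highest, and none passed, with a median of -0.07. Of 11 negative regulators 7 were measured and 1 passed: Sla, which encodes an adaptor that damps receptor signalling in blood cells, was at 50.7 CPM in stressed and 81.7 CPM in control microglia, a log2 ratio of -0.69 (-0.99 to -0.38). The phosphatase genes Dusp6, Ptpn6 and Inpp5d had log2 ratios of -0.25, 0.05 and -0.30. Of 13 regulators of the Csf1r gene 12 were measured and none passed, with a median of -0.07. Among them Maf was at 1043 CPM in stressed and 1098 CPM in control microglia, Spi1, which encodes PU.1, at 478 CPM in stressed and 429 CPM in control microglia, and Cebpb at 257 CPM in stressed and 260 CPM in control microglia. Of 6 genes that signal from the Csf2rb chain 3 were measured, Ywhaz, Jak1 and Stat3, and none passed. Of all measured genes, 7.57% passed 1.5 times. In all 9 lists, 2 of 47 measured genes did, Sla and Il3ra, the last admitted through its control level alone. With TMM scaling neither did, at a log2 ratio of -0.58 for Sla and -0.55 for Il3ra, and 0 of the 47 passed.

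**Figure D4:**
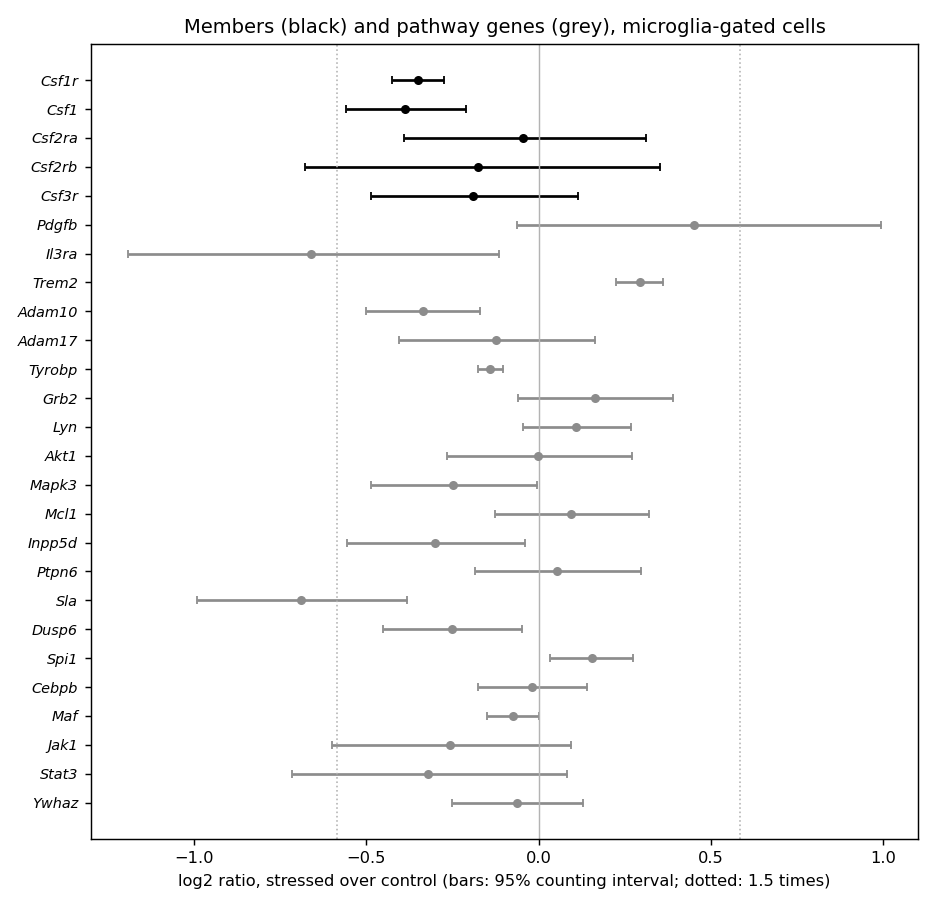
Log2 ratio of stressed over control in microglia-gated cells for 5 members (black) and pathway genes (grey), with 95% counting intervals; the dotted lines mark 1.5 times. The 5 members lie between -0.39 and -0.04, and Il3ra and Sla lie past the line on the lower side.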

How the data were processed

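Droplet 3′ libraries of the stressed and the control pool were analysed, 1 each. The files hold UMI counts that the authors deposited without normalization, for called cells only. Per the submitters' processing notes, the tools were Cell Ranger 3.0.0, STAR and Seurat 2.4, and the build was GRCm38.p5 (mm10). The strand setting of counting is not given in the sources used here. The counts summed to 6582188 UMIs in 1467 stressed and 2833015 UMIs in 1156 control barcodes.

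Cells needed 500 genes and no more than 10% mitochondrial UMIs; 48 stressed and 88 control barcodes had fewer genes and 12 stressed and 0 control ones more mitochondrial UMIs. A cell took the class whose marker list had most UMIs, at least 3 and at least 2 times those of the next class, which left 51 stressed and 83 control cells ungated; the neural class was split into neurons and progenitors by the same rule. In the microglia class 56 stressed and 43 control cells were within 4 times. Scrublet's own threshold marked 3 stressed and 2 control cells, so doublets were kept and the top 3.5% of scores left out as an alternative. Counts were summed per class and library and divided by the class total (CPM). Sums have exact Poisson, shares exact Clopper-Pearson and ratios exact conditional intervals at 95%. For a sum of 0 a ratio used 3 counts. Genes with 20 CPM in a compared class were measured, and 1.5 or 10 times was called. edgeR 4.0.16 (TMM) and DESeq2 1.42.0 in R 4.3.3 gave scaling factors only, and clusters came from scanpy 1.11.5 in Python 3.11.15. Positions are from GENCODE M21, which held 30934 of 31053 feature IDs. The summing was tested on simulated data.

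Besides the members, up to 3 genes with the highest microglial level of each list, list genes past 1.5 times and the 5 genes most like Csf1r and Csf1 were named. The members, lists and chemokine split were chosen with earlier results of these data known, among them a microglial cluster led by Csf1 that also held Ccl3 and Ccl4, so that pattern is not independent support.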

Additional observations from a re-analysis of the deposited data

How the results depend on the processing

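No paired analysis was possible because each group is 1 library. Alternatives were run for Csf1r, Csf1 and the count of genes, and none turned the sign of a Csf1r or Csf1 ratio; for Csf2ra, Csf2rb and Csf3r only the shift by scaling was computed. The log2 ratio of stressed over control stayed negative in 14 of 14 alternatives for Csf1r (-0.41 to -0.13) and for Csf1 (-0.54 to -0.10). For Csf1r it moved beyond its counting interval, from -0.35, to -0.24 with edgeR's TMM factors, -0.24 with DESeq2's size factors and -0.13 with a stricter filter of 1000 genes and 5% mitochondrial UMIs (865 stressed and 330 control cells). For Csf1 it moved to -0.10 in the cells with less dissociation response (572 stressed and 330 control cells). The log2 ratio of microglia over neural cells moved for Csf1r in the control library to 6.44 with thinned cells and 6.78 with a gate at 4 times, and for Csf1 in the stressed library to 2.79 with thinned cells. The Csf1 log2 ratio of cells with over without a chemokine UMI moved to 2.73 in thinned control cells. The cause was not tested. With TMM factors the excess of lower over higher genes turned, to 189 higher and 159 lower. Genes past 1.5 times numbered 408, with 128 at a minimum of 50 CPM, 3350 at 1 UMI in each library and 1106 in thinned cells. Chosen after seeing the data, leaving out shared barcodes gave -0.35 for Csf1r and -0.39 for Csf1, and leaving out the 1% of cells with most UMIs gave -0.35 for Csf1r and -0.37 for Csf1. Control cells without Xist against stressed cells with Xist gave -0.33 for Csf1r and -0.36 for Csf1. At the depth here, 0 UMIs say little in the 7 stressed and 8 control vascular cells.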

Other observations

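The ungated cells and the barcodes left out by the filters also held members. Ungated cells led by microglia markers, 36 in the stressed and 46 in the control library, had 133 Csf1r and 16 Csf1 UMIs in the stressed and 75 Csf1r and 19 Csf1 UMIs in the control library. Ungated cells led by border macrophage markers, 8 stressed and 14 control, had 1 Csf1 UMI in the stressed and 4 in the control library. The left-out barcodes held 8 Csf1r UMIs (74.4 CPM) in the stressed and 59 (624 CPM) in the control library.

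Over 10 profiles of classes by library, the genes most like each member in level were, of 10375 genes, Hmox1 for Csf1r (r = 0.99), Fmnl3 for Csf1 (r = 0.91) and the integrin gene Itgb2 for Csf3r (r = 0.99). Hmox1, which encodes haem oxygenase 1, was at 359 CPM in stressed and 246 CPM in control microglia and at 268 CPM in stressed and 263 CPM in control border macrophages. These profiles share 2 libraries and are given as a description.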
